A study of Mus musculus with 4 samples.

Results

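The globin genes of the mouse, embryonic and adult, were followed in fetal and maternal liver under food deprivation. Of 6 genes, the embryonic Hba-x, Hbb-y and Hbb-bh1 and the adult Hba-a1, Hbb-b1 and Hbb-b2, 5 had a probe under their own name. They were found by the gene name of each gene spot, which gave 10 globin probes, 4 embryonic and 6 adult, of 41174 gene probes on the array. Hbb-b2 was the exception: 0 probes carried its accession as their own, and 2 of the Hbb-b1 probes also list it, so no value is given for it. Liver RNA of C57BL/6J mice, an inbred laboratory strain, was compared on 4 two-colour Agilent arrays, with 2 arrays for fetuses and 2 for mothers. The groups were fetal control, fetal food deprivation, maternal control and maternal food deprivation, all from animals labelled as C57BL/6J and kept on the same chow. RNA of 5 to 10 animals was pooled per condition. On array 1 of each comparison food-deprived RNA carried the dye Cy5 and control RNA Cy3, and on array 2 the dyes were swapped. The sources used here give neither the length of the deprivation nor the stage of gestation or the ages of the animals.

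Haemoglobin is a tetramer of alpha-like and beta-like chains, each with a heme group that binds oxygen. The alpha-like genes lie together on one chromosome and the beta-like genes on another. In the mouse embryo, red cells made in the yolk sac carry haemoglobin with the zeta chain (Hba-x) and the beta-like chains epsilon y (Hbb-y) and beta H1 (Hbb-bh1). Red cell production then moves to the fetal liver, where definitive erythroblasts make adult alpha (Hba-a1) and beta (Hbb-b1, Hbb-b2) chains, and later to the bone marrow and spleen. The adult mouse liver is no major site of red cell production, but it is rich in blood. C57BL/6J carries a form of the adult beta locus whose genes are now named Hbb-bs and Hbb-bt, and the Hbb-b1 probes carry an accession that RefSeq names Hbb-bt.

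The probe sequences are shown because each level below is that of a single stretch of bases, and because closely related globins could share signal through them. All are 60 bases long and given 5′ to 3′ in the sense of the transcript, with coordinates in build mm7 as the files give them. The embryonic alpha-like gene has 1 probe, on chr11:32229678-32229737 (plus strand).
Hba-x, probe A_51_P204053: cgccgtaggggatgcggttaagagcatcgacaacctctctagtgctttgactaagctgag
The embryonic beta-like genes have 3 probes on the minus strand of chromosome 7, at chr7:99909287-99909346 for Hbb-y and at chr7:99898179-99898238 and chr7:99898199-99898258 for Hbb-bh1. Capitals mark the run of 40 bases that both Hbb-bh1 probes hold.
Hbb-y, probe A_51_P350058: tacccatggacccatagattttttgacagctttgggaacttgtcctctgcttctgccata
Hbb-bh1, probe A_51_P179672: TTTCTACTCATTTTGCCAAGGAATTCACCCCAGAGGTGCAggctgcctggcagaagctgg
Hbb-bh1, probe A_52_P305876: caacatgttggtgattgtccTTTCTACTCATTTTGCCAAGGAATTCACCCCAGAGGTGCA
The adult alpha gene has 2 probes, at chr11:32235785-32235966 and chr11:32235937-32235996 (plus strand). The first spans 182 bases of genome, more than its own length, so its match is split. The third line below is the probe of LOC383229, a predicted alpha-globin-like gene on the minus strand at chr17:24470047-24470211, which is no member and is shown for its likeness. Capitals mark the bases that differ from the first line where the sequences overlap.
Hba-a1, probe A_52_P278538: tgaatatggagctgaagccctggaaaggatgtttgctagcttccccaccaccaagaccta
Hba-a1, probe A_52_P208681: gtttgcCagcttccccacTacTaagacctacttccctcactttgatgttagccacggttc
LOC383229, probe A_52_P33382: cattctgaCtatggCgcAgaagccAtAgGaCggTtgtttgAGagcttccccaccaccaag
The Hba-a1 probes overlap by 30 bases with 3 mismatches (C7T, T19C and T22C, with positions from 1 at the 5′ end of A_52_P208681, whose base comes first). The LOC383229 probe overlaps the first Hba-a1 probe by 55 bases with 10 mismatches.
Of the 4 Hbb-b1 probes on the minus strand of chromosome 7, 3 are shown from 5′ to 3′, at chr7:99864621-99864680, chr7:99864335-99864394 and chr7:99864305-99864363. Capitals mark a shared run of 29 bases.
Hbb-b1, probe A_51_P374468: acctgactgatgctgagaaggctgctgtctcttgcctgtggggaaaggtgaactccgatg
Hbb-b1, probe A_52_P260346: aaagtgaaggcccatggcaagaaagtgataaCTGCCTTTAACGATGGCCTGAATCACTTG
Hbb-b1, probe A_51_P374476: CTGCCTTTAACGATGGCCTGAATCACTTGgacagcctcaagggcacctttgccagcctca
The remaining Hbb-b1 probe, A_52_P213909, lies 1204 bases downstream of the first. It and A_51_P374468 are those that also list the Hbb-b2 accession. Between probes of different globin genes the longest shared run was 10 bases, in Hbb-y and the first Hbb-bh1 probe, and between embryonic and adult probes it was 8 bases. Against all other probes of the array, no globin probe shared a run over 15 bases with a probe of another gene name, except Hba-a1 and LOC383229, which share 18.

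Per channel, 53.2% to 69.7% of the gene spots passed the scanner software's test for signal well above background, and 0 spots were saturated. The 2 arrays of a dye swap gave a gene's log2 ratio with an SD per array of 0.15 for fetal and 0.16 for maternal liver. The labels do not settle whether both arrays of a dye swap carry the same pools, so they were counted as 1 replicate and no p-value is given. A gene was called when its mean difference was at least 2-fold and each array, or each dye for levels, gave at least 1.5-fold the same way. "Higher", "lower", "rose" and "fell" are otherwise used with their values. All 13 hepatocyte markers matched on the array were measured in both fetal and maternal liver, as the tissue label states.

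The embryonic globins were detected in fetal liver and were dimmer in maternal liver. Hba-x, the zeta chain gene, had normalised log2 intensities in the fetal control pool of 7.49 (Cy3) and 7.78 (Cy5), and in the fetal food-deprived pool of 7.84 (Cy5) and 7.69 (Cy3). In the mother its levels were 6.37 and 6.45 in control and 6.47 and 6.45 in food-deprived liver, where it was well above background on 0 arrays. The fetal and maternal values did not overlap, and the share of all probes for which this holds was not counted. The fetal control level of Hba-x was at least 2.17-fold the maternal one, taking the lowest signal well above background, or the higher signal of the probe itself, as the maternal level.

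Hbb-y, the epsilon y chain gene, had the brightest embryonic probe, with 10.12 and 9.92 in the fetal control pool and 10.40 and 9.57 in the fetal food-deprived pool. In maternal liver it lay at 7.08 and 7.05 in control and at 7.10 and 7.01 in food-deprived RNA, well above background on both arrays. The maternal control level was 7.74-fold lower than the fetal one (log2 differences of -3.03 in Cy3 and -2.87 in Cy5). Hbb-bh1, the beta H1 chain gene, had fetal control levels of 8.30 and 8.48 and fetal food-deprived levels of 8.10 and 7.99 on A_51_P179672, the probe that stands for the gene. That probe was chosen by its mean brightness over all channels, food-deprived ones included, and in fetal control liver the other Hbb-bh1 probe was brighter. Its maternal levels were 6.82 and 6.61 in control and 6.66 and 6.62 in food-deprived liver, which makes the maternal control level 3.18-fold lower (-1.47 and -1.87). On the other Hbb-bh1 probe, well above background on 0 maternal arrays, the fetal control level was at least 3.97-fold the maternal one.

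The adult globins were bright in both livers and brighter in the fetus. Hba-a1, the adult alpha chain gene, had fetal control levels of 16.11 and 16.34 and fetal food-deprived levels of 16.27 and 15.59 on its brighter probe. In maternal liver the same probe read 13.56 and 13.39 in control and 13.50 and 13.37 in food-deprived RNA. The maternal control level was 6.75-fold lower (-2.56 and -2.95), and on the second Hba-a1 probe 6.49-fold lower (-2.37 and -3.03). Hbb-b1, the adult beta chain gene, had fetal control levels of 16.03 and 16.50 and fetal food-deprived levels of 16.23 and 15.88 on its brightest probe. The maternal levels of that probe were 14.63 and 14.27 in control and 14.47 and 14.52 in food-deprived liver, so that the maternal control level was 3.53-fold lower (-1.41 and -2.23). Each of these probes separated all fetal from all maternal channels, as the plot of levels in the 8 channels shows. How many other probes of the array do so was not counted.

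**Figure D1:**
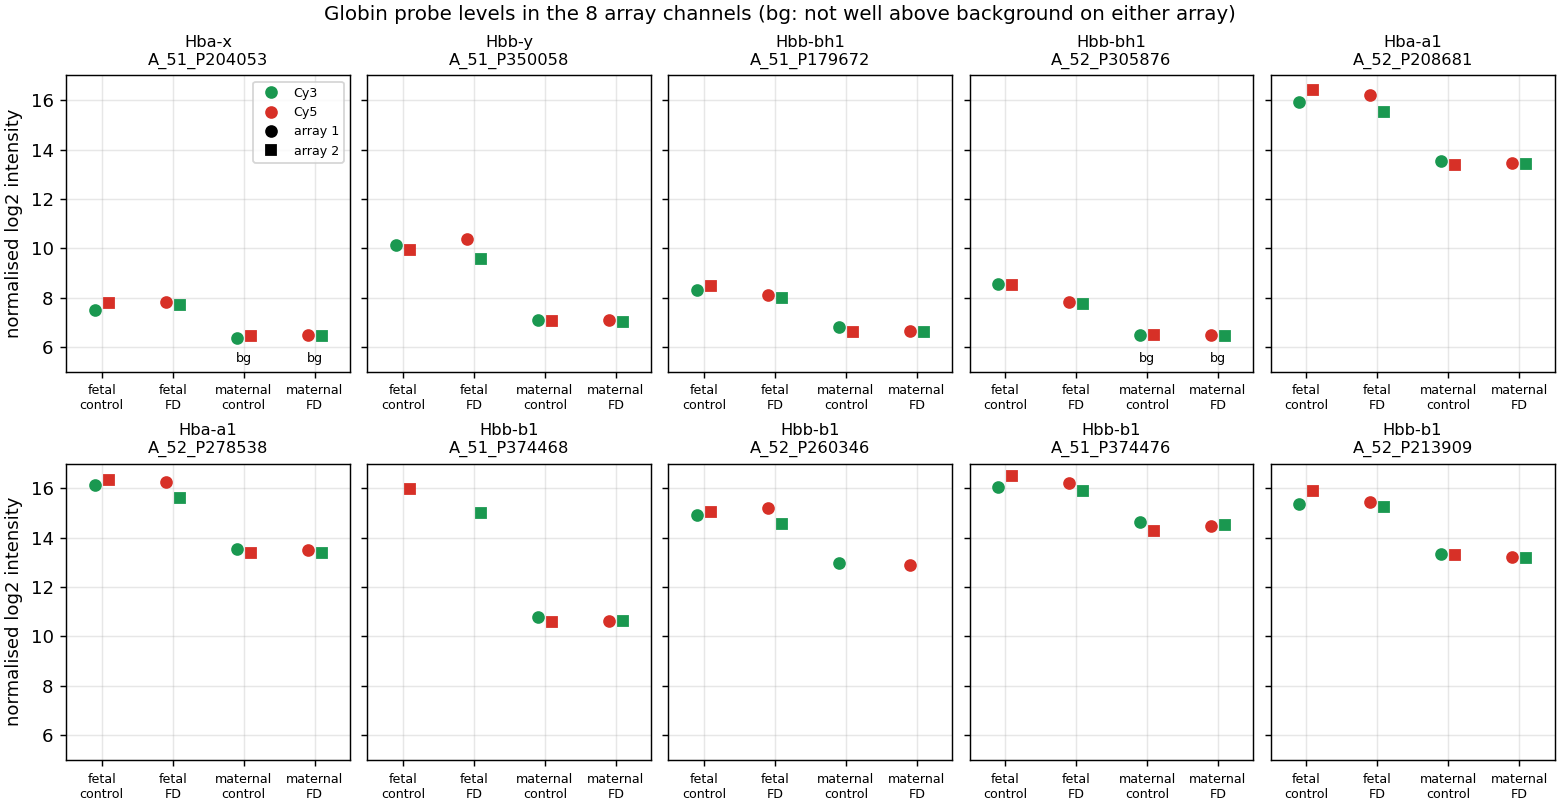
Each panel plots the normalised log2 intensity of 1 globin probe in the 8 channels of the 4 arrays, by group, with dye as colour and array as symbol. Fetal channels lie above maternal ones for every globin probe, and the share of all probes that do so was not counted. A missing symbol is a spot flagged as an outlier.

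In all, 5 of 5 measured globin genes were called lower in maternal than in fetal control liver, where 10.3% of 18086 measured genes were called lower and 9.06% higher. Of the 10 globin probes, 8 had a value in both dyes and all 8 were lower in the mother, against 8.74% of all measured probes. The Hba-x probe and Hbb-bh1 probe A_52_P305876 entered these counts by their fetal signal alone. For them the filter favoured a lower maternal level, so their calls add little to the counts. In these tissue samples fewer red cells or precursors and less globin RNA per cell cannot be told apart. Subject and array cannot be told apart either, since fetal and maternal RNA were never on the same array.

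The size of the gap depends on how dim signals are treated. The main values add an offset of 50 to the background-corrected intensity, which shrinks ratios between bright and dim channels, and on that scale the embryonic and adult folds overlapped. The adult probes were among the 78 brightest of the array in the fetus. Whether ratios also shrink at such brightness was not tested. With the scanner software's own processed signals, Hbb-y was 27.7-fold (Cy3) and 33.9-fold (Cy5) higher in the fetal than in the maternal control, and Hbb-bh1 probe A_51_P179672 15.7-fold and 25.5-fold. Hba-x was at least 8.79-fold and 21.2-fold higher, and the other Hbb-bh1 probe at least 24.4-fold and 44.8-fold higher. The Hba-a1 probes lay at 5.43-fold and 5.25-fold, and at 4.26-fold and 5.38-fold. Of the Hbb-b1 probes, 3 lay between 2.38-fold and 4.37-fold. On this scale the 4 embryonic probes therefore had larger gaps than 5 of the 6 adult probes, in both dyes. The folds and percentages of processed signals given per dye are direct ratios, without normalisation between arrays. Log2 control differences with the processed signals, here and below, were taken after that normalisation. They were -2.79 for Hba-a1 and -1.94 for Hbb-b1, beside -4.69 for Hbb-y and -4.02 for Hbb-bh1.

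The exception among the adult probes was A_51_P374468, the most 5′ of the Hbb-b1 probes. Its processed signal was 22.6-fold (Cy3) and 35.2-fold (Cy5) higher in the fetal control, as large as that of embryonic probes. On the main scale its Cy5 difference was -5.39, against -2.23 for the brightest Hbb-b1 probe in the same dye. The scanner software marked its spot as an outlier on fetal array 1, so that the Cy3 fold rests on a flagged spot and the Cy5 fold does not. The next Hbb-b1 probe lies 286 bases further 3′ and gave 2.83-fold and 3.09-fold, the latter with its maternal spot flagged on array 2. The probe at 317 bases gave 2.38-fold and 3.23-fold, and the last probe, at 1204 bases, gave 3.72-fold and 4.37-fold. Both the first and the last probe list the Hbb-b2 accession as well, and these had folds that differed in size. Probes of 1 annotated gene thus disagreed about the fetal and maternal level by a factor larger than the spread between dyes.

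**Figure D2:**
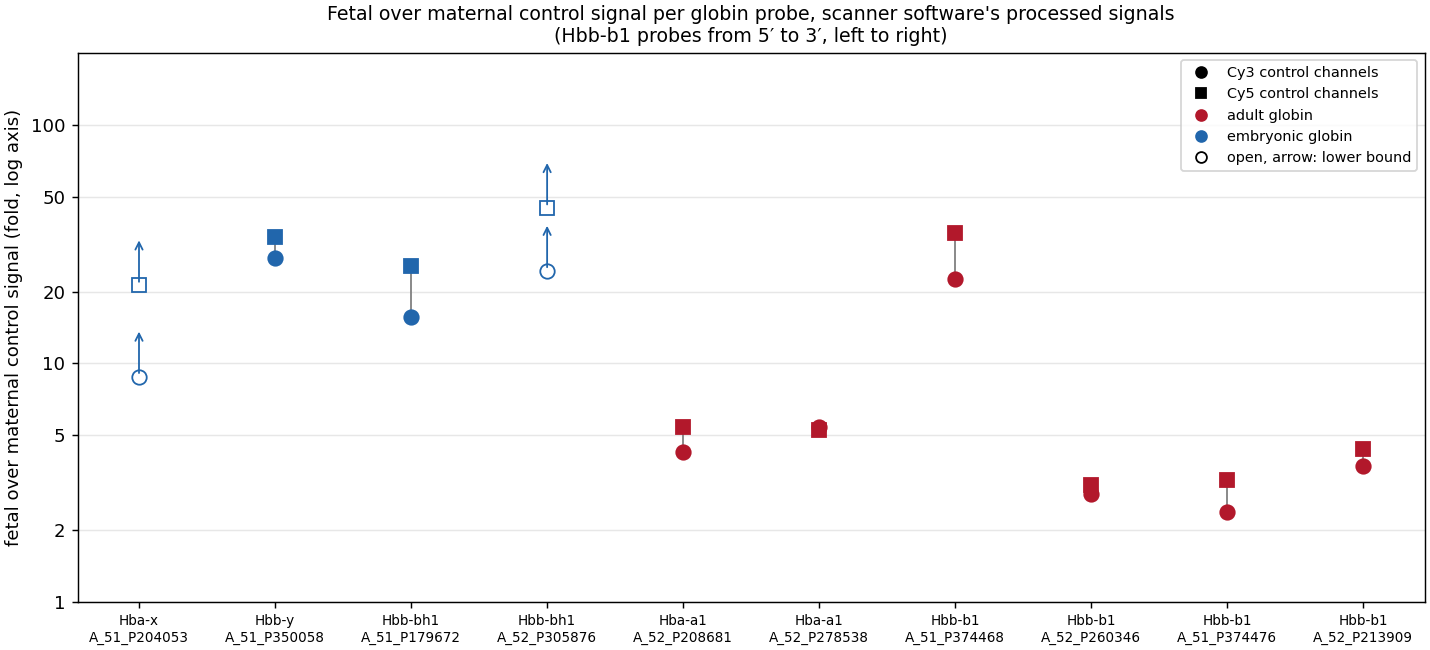
The ratio of fetal over maternal control signal is plotted on a log axis for each globin probe, from the scanner software's processed signals, in Cy3 (circles) and Cy5 (squares). These signals were not normalised between arrays. Open symbols with arrows are lower bounds. The embryonic probes and the most 5′ Hbb-b1 probe lie at 8.79-fold or above, and the other adult probes between 2.38-fold and 5.43-fold.

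Because the adult globin probes were bright in both livers, the maternal signal of an embryonic probe also gives a measure of how much adult RNA it could have bound. The maternal processed control signal of Hbb-y was 3.61% (Cy3) and 2.95% (Cy5) of its fetal signal, and that of Hbb-bh1 probe A_51_P179672 6.38% and 3.92%. For Hba-x it was at most 11.4% and 4.71%, and for the other Hbb-bh1 probe at most 4.09% and 2.23%. The adult probes had median fetal-over-maternal ratios of 3.99 in Cy3 and 4.81 in Cy5. If all of the maternal Hbb-y signal came from adult globin RNA and grew in the fetus by that median, it would make up 14.4% and 14.2% of the fetal Hbb-y signal, and 25.5% and 18.9% of the fetal signal of Hbb-bh1 probe A_51_P179672. With the ratio of the most 5′ Hbb-b1 probe in place of the median, it would be 81.5% and 104% for Hbb-y, so that the answer turns on which adult probe is taken. The probes show their own letters only: whether an embryonic probe matches a stretch of adult globin RNA outside the adult probes was not tested.

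The probe nearest in sequence to that of adult alpha globin had a larger gap. LOC383229, which matches 81.8% of 55 bases of the Hba-a1 probe, read 12.39 and 12.64 in the fetal control and 7.48 and 7.59 in the maternal control. Its maternal control level was 31.5-fold lower (-4.90 and -5.06), compared with 6.75-fold for the Hba-a1 probe. Its log2 ratios of food-deprived over control were -0.07 and -0.16 in the fetus and 0.17 and -0.11 in the mother.

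In the fetal liver 0 of 5 globin genes passed the rule for a response to food deprivation, where 0.737% of 18055 measured genes did. Pairs of values are the log2 ratio of the food-deprived to the control pool, array 1 first and array 2 second. The adult genes gave opposite signs on the arrays: Hba-a1 had 0.15 and -0.75 (mean -0.30, SD 0.64), and Hbb-b1 0.20 and -0.63 (mean -0.22, SD 0.58). The second Hba-a1 probe gave 0.31 and -0.89, and the Hbb-b1 probes with both arrays gave 0.29 and -0.52, and 0.04 and -0.66. Hbb-y also changed sign (0.28 and -0.35, mean -0.04), as did Hba-x (0.35 and -0.08, mean 0.13). Hbb-bh1 was below 0 on both arrays with the probe A_51_P179672 (-0.20 and -0.49, mean -0.35).

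All 5 adult probes with a value on both arrays thus read lower in the food-deprived pool on array 2 only. Here the dye orientation cannot be told apart from another difference between the arrays or, if these differ, their pools. The part of the log2 ratio that favoured Cy5 on both arrays was 0.45 and 0.60 for the Hba-a1 probes and 0.35 to 0.41 for the Hbb-b1 probes. The adult probes were among the 78 brightest of the array in the fetus, and the 200 brightest measured probes of other genes had a median of 0.19 (quartiles 0.06 and 0.32). Opposite signs were found for 37.2% of all measured fetal genes and for 58.5% of those 200 probes. With the scanner software's processed signals this part was 0.10 for the Hba-a1 probe A_52_P278538 and 0.12 for the Hbb-b1 probe A_51_P374476, which stand for these genes. Both were then below 0 on both arrays, at -0.30 and -0.50 for Hba-a1 and at -0.17 and -0.41 for Hbb-b1, as was Hbb-b1 probe A_52_P213909 (-0.28 and -0.46). The other Hba-a1 probe, A_52_P208681, kept opposite signs (0.05 and -0.78), and so did Hbb-b1 probe A_52_P260346 (0.11 and -0.41). With median centring the means turned to 0.05 and 0.12, with array values of 1.77 and -1.68 for Hba-a1. A fetal direction for the adult globins is therefore not given.

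The Hbb-bh1 probes differed in size. A_52_P305876 had log2 ratios of -0.72 and -0.76 (mean -0.74), with fetal control levels of 8.55 and 8.50 and fetal food-deprived levels of 7.82 and 7.73. The control and food-deprived channels of this probe did not overlap, and the share of all fetal probes for which this holds was not counted. It was the globin probe at least 1.5-fold lower on both arrays, as were 0.601% of all measured fetal probes, but its mean stayed under 2-fold. With the processed signals its mean was -1.07 (-0.95 and -1.19), past the rule, and in the deposited series table, which holds ratios of the same signals, also -1.07. A_51_P179672, which shares 40 bases with it, had a mean of -0.51 with the processed signals and did not pass. The value of Hbb-bh1 in the fetus thus depended on the probe.

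**Figure D3:**
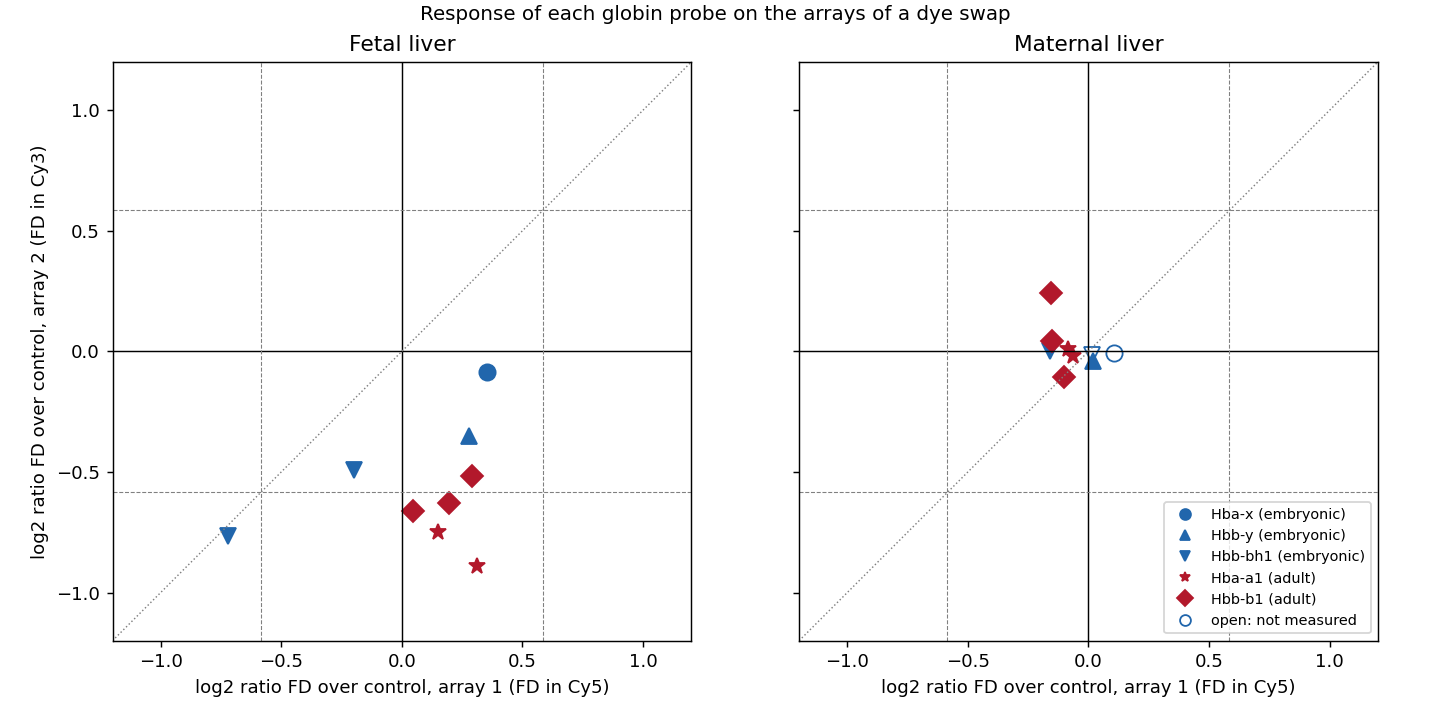
Each point is a globin probe, with its log2 ratio of food-deprived over control on array 1 (horizontal) and on array 2 (vertical), for fetal (left) and maternal liver (right). Dashed lines mark 1.5-fold. The adult probes of the fetus lie in the lower right, where the arrays have opposite signs, 1 Hbb-bh1 probe lies near the diagonal at -0.72 and -0.76, and the maternal probes lie near 0.

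In the maternal liver 0 of 4 measured globin genes passed the rule, where 3.43% of 16148 genes did. Hba-a1 had log2 ratios of -0.06 and -0.02, and its second probe -0.09 and 0.01. Hbb-b1 had -0.15 and 0.24 on its brightest probe and -0.10 and -0.10 on the most 3′ one. Hbb-y had 0.02 and -0.04, and Hbb-bh1 -0.16 and 0.00. Hba-x was not measured in the mother. With the processed signals Hbb-bh1 had -0.33 and -1.95, far apart on a probe whose maternal control signal was 52.0 and 35.4 units.

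The mean response of the embryonic genes minus that of the adult genes was -0.03 on fetal array 1 and 0.38 on fetal array 2 (mean 0.18), which is less than the gap between the arrays. In the mother it was 0.04 and -0.13 (mean -0.05). The maternal minus the fetal response was called for 0 of 4 genes, where 2.99% of 15598 genes were called. Its mean was 0.26 for Hbb-b1 (-0.35 and 0.87), 0.26 for Hba-a1 (-0.21 and 0.73), 0.27 for Hbb-bh1 (0.04 and 0.50) and 0.03 for Hbb-y (-0.26 and 0.31).

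The pattern of each gene over the 8 channels was compared with those of other genes well above background in fetal liver. There were 17021 of these, and the nearest with a gene symbol are given. The distance is the root mean square difference of levels centred on each gene's own mean. The channels share arrays and pools, and most of the pattern is the difference between fetus and mother. The genes nearest to Hbb-y were Cdc6, a DNA replication licensing factor (0.16), AI427122 (0.16) and Wdhd1, another replication protein (0.17). Hbb-bh1 had Chek1, a checkpoint kinase (0.052), Ercc6l (0.056) and Cdhr2 (0.068) nearest, and Hba-x had Rhoh (0.055), Serpinb2 (0.059) and Ppp1r3d (0.062). Hba-a1 had Vav2 (0.16), Igll1, a surrogate light chain of precursor B cells (0.16), and Prdx2, an antioxidant enzyme abundant in red cells (0.16). Hbb-b1 had Plagl2 (0.13), Hbb-bh1 (0.14) and Ppil5 (0.14). The offset compresses the gap of dim probes, so these neighbours hold for the main scale. With the processed signals the maternal minus fetal control difference was -5.98 for Hba-x, measured against a maternal signal not well above background, -4.69 for Hbb-y, -4.02 for Hbb-bh1 and -1.94 for Hbb-b1.

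Most other genes of the red cell lineage were also lower in maternal liver. Of 65 measured genes of heme and iron supply, the red cell membrane and other erythroid functions, 49 were called lower and 1 higher in maternal control liver, beside 10.3% and 9.06% of all genes, with a median log2 difference of -2.74 against 0.02 for all genes. Genes detected in the fetus alone count among the 65, and for these the filter favoured a lower maternal level. For the maternal response 47 of the genes were measured. Slc4a1, the anion exchanger of the red cell membrane, had the largest gap on the main scale, at 224-fold (-8.03 and -7.59). Alas2, the erythroid enzyme that starts heme synthesis, was 19.2-fold lower (-4.25 and -4.28). Gata1, a transcription factor of the red cell lineage, was 8.34-fold lower (-3.06 and -3.06). The gap of Hbb-b1 was smaller than that of 43 of the 65 genes and that of Hba-a1 smaller than that of 32, and with the processed signals these counts were 44 and 37. Of the embryonic genes, Hbb-y had a gap smaller than that of 28 of the 65, and of 26 with the processed signals. For Hbb-bh1 these counts were 43 and 30 and for Hba-x 47 and 23, so the place of the dim probes depends on the scale.

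Among 22 regulators described for globin switching, 10 were called lower and 1 higher in maternal control liver, against 10.3% and 9.06% of all genes. Regulators detected in the fetus alone count among the 22. Klf1, which binds CACCC boxes and activates adult beta globin, was 12.0-fold lower (-3.86 and -3.31), and Bcl11a, a repressor of embryonic beta-like globins, 5.27-fold lower (-2.32 and -2.48). Myb, a progenitor transcription factor, was not well above background in maternal control liver, and its fetal level was at least 16.0-fold the maternal one. In the fetus 0 of the 22 passed the rule for food deprivation, where 0.737% of all genes did. Klf1 had log2 ratios of -0.56 and -0.59, Bcl11a -0.21 and -0.24, Gata1 -0.12 and -0.24 and Myb -0.10 and 0.33.

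The erythroid lists as a whole lay slightly below 0 in food-deprived fetal liver. Of the 65 genes 0 passed the rule, where 0.737% of all genes did. A mean below 0 was found for 53 of them, and the median was -0.21 (-0.23 on array 1 and -0.19 on array 2), against 0.00 for all genes. With median centring this median was 0.01, against 0.09 for all genes. Slc4a1 had -0.37 and -0.10 and Alas2 -0.13 and 0.02. The means of the probes that stand for the 5 globin genes lay within the range of these genes (-0.58 to 0.52), and Hbb-bh1 probe A_52_P305876, at -0.74, lay below it. In the mother, 47 erythroid genes were measured, with a median of -0.11, and 1 passed the rule (3.43% of all genes did), Alad, an enzyme of heme synthesis shared by all cells (-1.31 and -0.98).

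**Figure D4:**
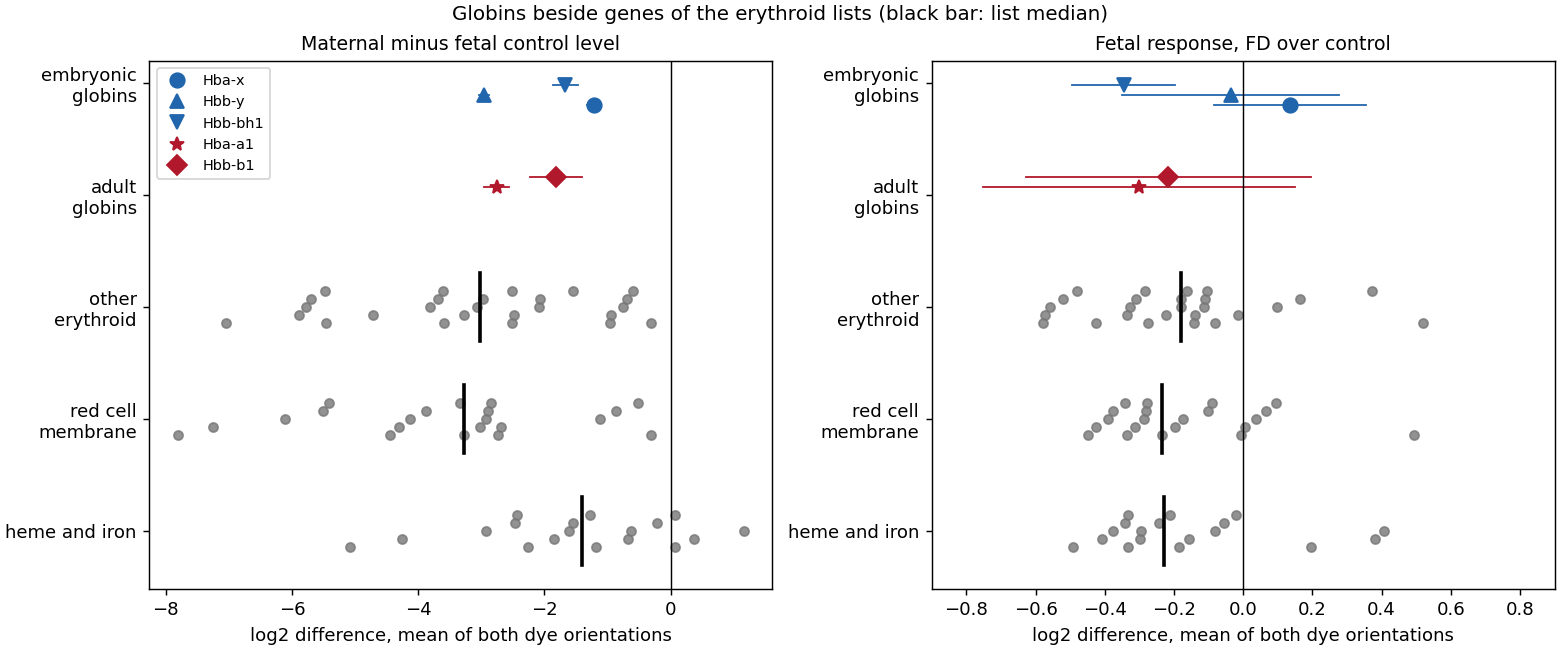
Grey points are the genes of the 3 erythroid lists and black bars their medians, beside the globin genes with lines from one dye orientation to the other, for the maternal minus fetal control level (left) and the fetal response (right), both as log2 differences. The means of the globin genes lie inside the range of the erythroid means in both panels. In the fetus the lines of the adult globins span 0 and reach -0.75 for Hba-a1 and -0.63 for Hbb-b1 on array 2. The grey points are means of both arrays. On array 2 alone the erythroid genes reached -0.82, so these globin values lie inside the erythroid range of that array.

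Of the other globin genes matched on the array, 2 are theta globin genes, named here after their values were seen. The maternal control level of Hbq1b was 5.79-fold lower than the fetal one, and the fetal level of Hbq1a at least 3.05-fold the maternal one. Their fetal log2 ratios were 0.30 and 0.15 for Hbq1b and 0.43 and 0.04 for Hbq1a. Genes that clear free haemoglobin and heme did not pass the rule in the fetus, where 0.737% of all genes did. Of 12 measured, 11 had a mean above 0 (median 0.23, against 0.00 for all genes). Hp, which binds free haemoglobin, had 0.93 and 0.37, Hpx, which binds free heme, 0.31 and 0.17, and Hmox1, which breaks heme down, 0.35 and 0.43. In the mother 1 of the 12 passed, where 3.43% of all genes did. This was Hamp2, a gene of the hepcidin family (-1.13 and -1.84). Hamp, of the same family and named here after its values were seen, had 0.72 and -0.07 and did not pass. Ahsp, the alpha globin chaperone, was not matched on the array.

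Markers of other blood cells moved with the fetal and maternal gap too. All 10 measured granulocyte markers and 5 of 11 lymphocyte markers were called lower in maternal control liver, as were 6 of 11 progenitor markers, and 2 of 14 Kupffer cell markers were called lower and 2 higher, beside 10.3% of all genes lower and 9.06% higher. Markers detected in the fetus alone count as measured here too, and for these the filter favoured a lower maternal level. For food deprivation, 0 of the granulocyte, lymphocyte and progenitor markers passed in either liver, while 4 of 14 Kupffer cell markers fell in the mother (median -0.56), where 3.43% of all genes passed, among them Adgre1 (-1.16 and -1.09) and Cd5l (-1.01 and -1.05). Placental markers had medians of 0.05 in the fetus (3 measured) and -0.01 in the mother (2 measured). The part of these cells in the globin values was not tested.

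Promoter sequences are shown for 4 of the globin genes that RefSeq holds in build GRCm38.p6, as the regulators above act on short motifs there. Each window is the 150 bases before the start of the gene, 5′ to 3′ on its own strand, at chr11:32276450-32276599 for Hba-x, chr7:103853208-103853357 for Hbb-y, chr11:32283522-32283671 for Hba-a1 and chr7:103813924-103814073 for Hbb-bt. Capitals mark the CACCC box, the CCAAT box, the GATA factor core GATAA and the TATA box core TATAA, searched on both strands.
Hba-x: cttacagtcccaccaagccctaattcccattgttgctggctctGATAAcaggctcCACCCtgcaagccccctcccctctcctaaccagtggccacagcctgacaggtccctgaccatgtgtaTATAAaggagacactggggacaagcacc
Hbb-y: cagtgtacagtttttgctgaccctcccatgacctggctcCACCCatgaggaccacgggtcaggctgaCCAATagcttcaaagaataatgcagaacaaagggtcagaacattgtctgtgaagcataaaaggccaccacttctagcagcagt
Hba-a1: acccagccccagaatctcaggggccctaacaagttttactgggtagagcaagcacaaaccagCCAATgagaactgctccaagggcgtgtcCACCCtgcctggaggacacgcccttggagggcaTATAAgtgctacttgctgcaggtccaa
Hbb-bt: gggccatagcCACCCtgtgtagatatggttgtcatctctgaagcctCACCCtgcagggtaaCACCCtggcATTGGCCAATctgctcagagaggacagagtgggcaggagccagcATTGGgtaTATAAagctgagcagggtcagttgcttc
CACCC, the core of the box that Klf1 binds, occurred once in Hba-x, Hbb-y and Hba-a1 and 3 times in Hbb-bt, and 37.4% of 32851 windows of this length hold it. CCAAT occurred in Hbb-y, Hba-a1 and, 3 times, in Hbb-bt (24.5% of windows), TATAA in all but Hbb-y (14.2%) and GATAA in Hba-x alone of these 4 (13.3%). Hbb-bs, the other adult beta gene of C57BL/6J, was also searched but is not shown. Its window held 1 match to the core of the Klf1 box and 1 to the CCAAT box, as did that of Hbb-y. The 3 matches to each in Hbb-bt were therefore not shared by both adult beta genes. These are matches of letters and not measured sites.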

How the data were processed

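Gene expression was measured in 8 channels of 4 arrays. Spot mean, local background and processed signal are intensity values on a linear scale in the deposited scanner files, written by Agilent Feature Extraction 9.5.1.1 per the file headers (9.5.3.1 per the submitters' processing notes). The log10 ratios of red over green that the scanner software wrote, per the file headers, were not used. The deposited series table holds a linear ratio of red over green, whose columns matched the scanner values at a Pearson correlation of at least 0.9999. Its sign is negative for nearly all spots of array 1 and positive on array 2, with unknown meaning, and was dropped.

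R 4.3.3 and limma 3.58.1 were used: normexp with offset 50, loess within arrays with control spots at weight 0, and Aquantile between arrays for levels. Outlier-flagged spots were left out. For a response, a probe was measured when its control or food-deprived channel was well above background on both arrays. For levels, the control channel of the fetus or of the mother had to be well above background on both arrays. For the maternal minus fetal response, the probe had to be measured in both livers. The brightest measured probe stood for a gene. Levels of fetus and mother were subtracted within a dye. Members, gene lists and rules were chosen with earlier results of these data known. The named genes were all globins, up to 4 called genes of each list and 10 fixed genes. The steps were checked on simulated data. The labels do not settle whether both arrays of a comparison carry the same pools, and the number of arrays limits the precision. Alternatives are given at the end.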

Additional observations from a re-analysis of the deposited data

How the results depend on the processing

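No paired analysis was possible because the replicate numbers mark the dye orientation of pooled RNA and no test was made. A count of called globins was taken as unchanged when it was equal or close to the reported one. An embryonic minus adult contrast was taken as unchanged when it moved by less than the spread between arrays, whatever its sign. By these rules 64 alternative values were unchanged and 3 moved. Those 3 concern the maternal contrast, -0.05 as reported, which was -0.62 with the scanner software's processed signals, 0.078 with median centring and -0.63 in the deposited series table, and the cause was not tested. With the processed signals the maternal means were -1.14 for Hbb-bh1 (-0.33 and -1.95) and -0.09 for Hbb-y. Those of the adult genes were -0.03 for Hba-a1 and 0.05 for Hbb-b1, so the value of -0.62 rests mostly on the dim Hbb-bh1 probe. Leaving out an array gave -0.03 to 0.38 for the fetal contrast and -0.13 to 0.04 for the maternal one. The settings left the counts of called globin genes as reported. Alternatives added after seeing the data were another local background for stained spots and other between-array normalisations. Of values for single genes, probes and lists, 338 kept their call or stayed within the spread, 31 moved and 2, both of Hbb-bh1 probe A_52_P305876 in the fetus (-1.07 and -1.07), passed the 2-fold rule. With the processed signals the maternal minus fetal control difference went from -1.22 to -5.98 for Hba-x, from -1.67 to -4.02 for Hbb-bh1 and from -2.95 to -4.69 for Hbb-y, the maternal response of Hbb-bh1 from -0.08 to -1.14 and its maternal minus fetal response from 0.27 to -0.62. Low signal over background limits Hba-x and Hbb-bh1 in the mother.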
